A study of Homo sapiens with 12 samples.

Results

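The fibroblast growth factor (FGF) ligand genes FGF2, FGF4, FGF8, FGF13, FGF17 and FGF19 and the receptor genes FGFR1, FGFR2, FGFR3 and FGFR4 were followed through the loss of OCT4 in H1, a long-established line of human embryonic stem cells. All 18 probes annotated to these 10 genes were taken from the 48803 probes of an Illumina bead array, 10 probes for ligands and 8 for receptors. The 48803 probes name 18852 genes. The 12 arrays formed 4 groups of 3. Knockdown cells received an shRNA against OCT4, the pluripotency factor encoded by POU5F1, and control cells an shRNA against luciferase, an enzyme foreign to human cells. Both were given with Fugene the day after seeding, and RNA was taken 2 or 3 days after transfection. The labels describe no selection of transfected cells, name 1 shRNA per target, and do not say whether replicates came from separate cultures. The p-values therefore rest on the spread between arrays, which may be technical.

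FGFs are signalling proteins that bind receptor tyrosine kinases on the cell surface together with heparan sulphate chains, and the activated receptor recruits adaptors that switch on the RAS, RAF, MEK and ERK kinases. FGF2 is routinely added to the medium of human embryonic stem cells, and FGF4 is a known OCT4 and SOX2 target in mouse embryonic stem cells. FGF8 and FGF17 belong to 1 subfamily and are known from the primitive streak and the developing brain, FGF19 is an endocrine FGF that acts chiefly through FGFR4 and a klotho protein, and FGF13 is a homologue that stays inside the cell and binds sodium channels and microtubules. FGF13 is counted with the ligands here by its name only.

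Between 13343 and 14969 probes were detected per array (detection p under 0.01), and the median intensity was 69.6 to 71.8. POU5F1 itself fell by 2.23 on the log2 scale at day 2 (SE 0.20, limma adjusted p = 8.23e-06) and by 2.96 at day 3 (SE 0.20, adjusted p = 1.46e-07), to 21.4% and 12.9% of control, with every knockdown array below every control array. Over 10506 genes, each read by its brightest probe detected on at least 3 arrays, 8.15% were called at day 2 (5.45% higher, 2.69% lower). At day 3 the share called was 29.0% (14.1% higher, 14.9% lower). All 10 measured defining markers of H1 cells were detected on every array, and 5 of them fell at day 2 and 8 at day 3. Of 8 definitive endoderm markers, 5 were measured and all 5 were called higher on both days, although GATA4 was undetected in both groups of day 2, so that its day 2 call sets background against background. Their normalised intensities, summed over the 8 genes, spanned 1100 to 1431 in control and 6139 to 9267 in knockdown arrays at day 2, and 737 to 1648 against 15150 to 18910 at day 3, with FOXA1 undetected throughout. Of 7 measured mesoderm and primitive streak markers, 5 rose at day 2, and 6 rose and 1 fell at day 3, with sums over 8 genes of 459 to 667 against 4251 to 5975 and of 586 to 1425 against 6716 to 8101. Trophoblast markers had 1 rise at day 2 and 2 at day 3 among 4 measured. KRT7 rose by 1.54 at day 2 (adjusted p = 0.0261). At day 3 KRT7 and GATA3 were at least 4.1-fold and 1.79-fold higher (adjusted p = 6.15e-05 and 7.42e-04), with control undetected. TFAP2A and TFAP2C were not called, and GATA2, CDX2, CGA, CGB3 and ELF5 were undetected. Sums over 9 genes were 939 to 1088 in control against 1014 to 1158 in knockdown arrays at day 2. At day 3 they were 768 to 978 against 1124 to 1364. Of 6 neuroectoderm markers only OTX2 and NES were measured: OTX2 rose by 1.04 at day 2 and 2.20 at day 3 (adjusted p = 8.6e-04 and 2.57e-07) and NES by 1.03 at day 3 (adjusted p = 0.0027), with sums of 3126 to 3922 in control against 3976 to 5849 in knockdown arrays at day 2 and of 2053 to 2557 against 5272 to 6304 at day 3. Stromal markers had 4 rises and 1 fall at day 2 and 5 rises and 1 fall at day 3 among 7 measured, with DCN and POSTN undetected on all arrays. Summed over 10 genes they spanned 8466 to 12950 in control and 9297 to 15120 in knockdown arrays at day 2, and 7715 to 12760 against 13680 to 20880 at day 3. The part of such cells in the values below was not tested, and in bulk RNA fewer cells of a type and less RNA per cell cannot be told apart. Of the markers, GATA4, HAND1, MESP1 and LUM were detected on no control array. SOX17, GSC, LHX1, GATA3 and KRT7 were detected on 1 control array of 1 day and on none of the other day. None of these would have passed the detection filter without the knockdown arrays, so the marker counts describe the measured genes and not the lists. In each group the replicate 3 array had the highest value on the second principal component (17.6% of the variance).

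Detection divided the family. Kept for testing were 11 probes for 8 genes, detected on at least 3 of the 12 arrays, whereas the other 7 probes were detected on none (intensities 49.9 to 107). FGF4 and FGFR2 were represented only by such probes: the FGF4 probe (ILMN_1677456) lay between 49.9 and 68.6 on the 12 arrays, and the FGFR2 probe (ILMN_1682270) between 56.9 and 71.5. Neither gene was therefore measurable here, in control or in knockdown cells. Other undetected probes belonged to FGF13 (ILMN_1653826 and ILMN_1690984), FGFR1 (ILMN_1729369), FGFR3 (ILMN_1651966) and FGFR4 (ILMN_2241412). For FGF13, ILMN_1690984 is annotated to the same transcript as the detected ILMN_1671777, so its silence cannot be read as absence of that transcript. FGFR3 came closest to the limit, with a lowest detection p of 0.0105 for ILMN_1651966.

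**Figure D1:**
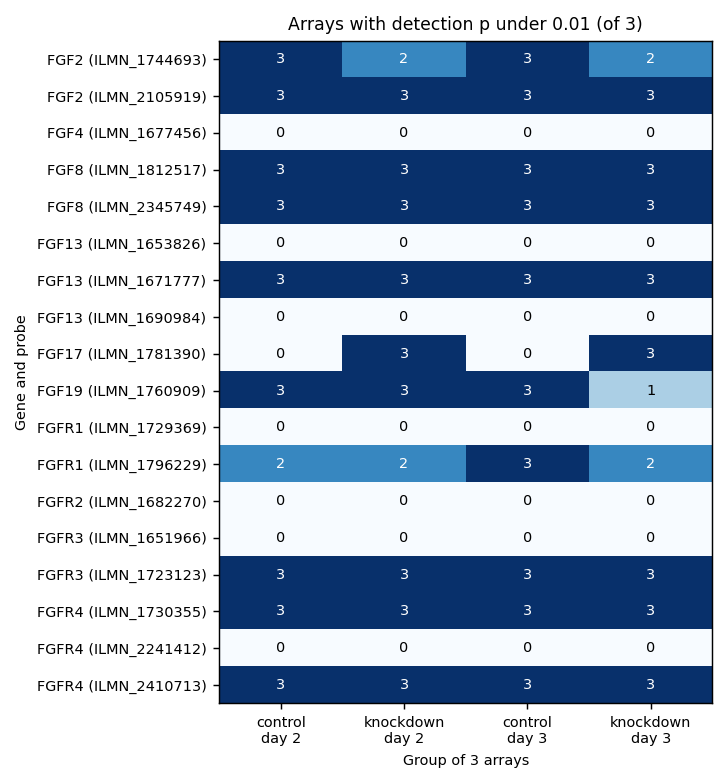
Number of arrays, of 3 in each group (columns), on which each of the 18 FGF ligand and receptor probes (rows) was detected at a detection p under 0.01. The FGF17 row reads 0, 3, 0, 3, and the FGF4 and FGFR2 rows hold only 0.

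Of the 11 tested probes, 4 rose in knockdown at day 2 and 0 fell, against 7.60% of all 15407 kept probes called changed in either direction (5.03% higher and 2.57% lower). The 4 risers were probes for FGF8 (both probes), FGF13 and FGF17. They fall among the 7 tested probes counted as ligands, a label that includes the intracellular FGF13. At day 3, 9 of the 11 were called, 4 higher and 5 lower, where 27.6% of all kept probes were called (13.2% higher and 14.4% lower). The higher ones were FGF8, FGF17 and FGFR3, and the lower ones FGF2, FGF19, FGFR1 and both FGFR4 probes. The median change of the 11 was 0.22 at day 2 and -0.38 at day 3, beside -0.04 and -0.08 over all kept probes. The FGF17 probe passed the detection filter only through its knockdown arrays, so these counts describe the tested probes and not the family.

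**Figure D2:**
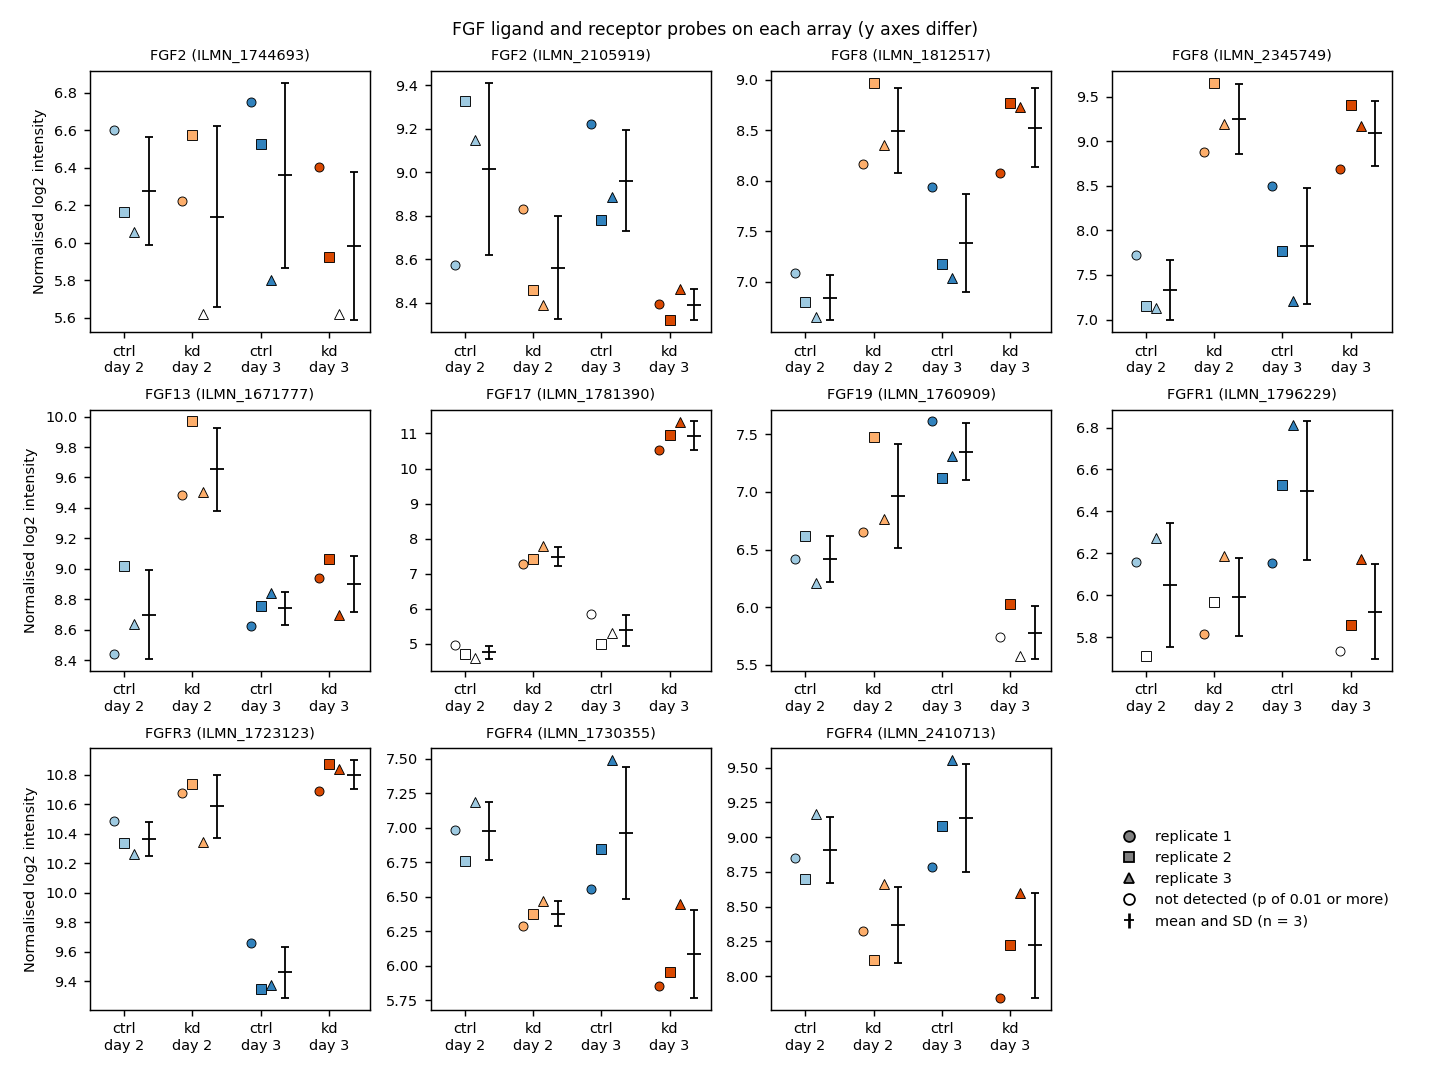
Normalised log2 intensity (y axis, a range of its own for each panel) of the 11 tested probes on the 12 arrays, by group (x axis, ctrl for control and kd for knockdown). Symbols mark replicates, open symbols undetected arrays, and bars the mean and SD (n = 3). FGF17 rises from undetected to 10.52 to 11.34 in day 3 knockdown, while FGF19 is highest in day 3 control.

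FGF17, a secreted ligand, showed the largest change of the family at day 3. Its probe (ILMN_1781390) lay at 4.98, 4.71 and 4.61 (normalised log2 intensity, replicates 1 to 3) on the control arrays of day 2 and at 5.86, 5.00 and 5.30 on those of day 3, undetected on all 6. In knockdown it reached 7.28, 7.41 and 7.79 at day 2 and 10.52, 10.95 and 11.34 at day 3. Each knockdown array thus lay above every control array, and the day 3 knockdown arrays lay above those of day 2 without overlap. Against the detection level of the control arrays, FGF17 was at least 3.02-fold higher at day 2 (adjusted p = 9.37e-06, n = 3 per group) and at least 32.0-fold higher at day 3 (adjusted p = 3.67e-09). The adjusted p-values test the fitted changes of 2.73 and 5.55 (SE 0.24 each) and not the bounds. These changes are set against control arrays at background and give no exact size. Without background correction they were 1.76 and 4.50, and with the authors' log2 values 1.76 and 4.53 (adjusted p = 3.84e-05 and 1.04e-09, and 3.23e-05 and 6.17e-10). Both day 3 values lie below the bound, which therefore holds only for background-corrected values. In the deposited intensities FGF17 averaged 88.7 on control and 2077 on knockdown arrays of day 3.

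FGF8, from the same subfamily as FGF17, was detected on all 12 arrays by probes annotated to different transcripts. On ILMN_2345749 the control arrays of day 2 lay at 7.72, 7.15 and 7.13 and the knockdown arrays at 8.88, 9.66 and 9.20, a change of 1.91 (SE 0.31, adjusted p = 0.00148) or 3.77-fold. On the control arrays of day 3 it lay at 8.50, 7.77 and 7.21 and in knockdown at 8.69, 9.41 and 9.17, a change of 1.27 (SE 0.31, adjusted p = 0.0078). The groups did not overlap on either day, yet at day 3 replicate 1 of control came within 0.20 of replicate 1 of knockdown. The other FGF8 probe (ILMN_1812517) gave 1.65 at day 2 and 1.14 at day 3 (adjusted p = 0.00176 and 0.00693). Both day 3 calls were lost when the arrays of replicates 1 and 2 were fitted alone (0.92 and 0.87, adjusted p = 0.0755 and 0.0801). Unlike FGF17, FGF8 showed no further rise in knockdown arrays between the days that passed the test (-0.15, 95% confidence interval -0.82 to 0.51, adjusted p = 0.855, for ILMN_2345749).

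FGF13, the intracellular member, passed the test at day 2 and not at day 3. ILMN_1671777 lay at 8.44, 9.02 and 8.64 in control and at 9.48, 9.97 and 9.51 in knockdown arrays of day 2, a change of 0.95 (SE 0.18, adjusted p = 0.00477) or 1.94-fold. At day 3 the control arrays lay at 8.62, 8.76 and 8.84 and the knockdown arrays at 8.94, 9.06 and 8.70, overlapping, with a change of 0.16 (95% confidence interval -0.23 to 0.55, adjusted p = 0.561). The difference between the 2 changes was -0.79 and did not pass (adjusted p = 0.172), and it passed with the replicate number as a block (adjusted p = 0.0307), although the numbers were not taken to pair the day 2 arrays. Within knockdown cells FGF13 fell by 0.75 from day 2 to day 3 (SE 0.18, adjusted p = 0.0285), where 3 of the 11 probes were called against 5.13% of all kept probes (3.51% higher and 1.62% lower): FGF17 higher, and FGF13 and FGF19 lower. The FGF13 call was lost in several settings, among them the fit without knockdown day 3 replicate 3 (adjusted p = 0.101), without knockdown day 3 replicate 1 (0.079) and without knockdown day 2 replicate 2 (0.0943).

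FGF19 lay on opposite sides of control on the 2 days, with the day 3 difference past the threshold. On the control arrays ILMN_1760909 lay at 6.42, 6.62 and 6.21 at day 2 and at 7.61, 7.12 and 7.31 at day 3. On the knockdown arrays it lay at 6.65, 7.48 and 6.76 at day 2 and at 5.74, 6.02 and 5.57 at day 3, where only replicate 2 was detected. Knockdown arrays were thus above all control arrays at day 2 and below all control arrays at day 3. The day 2 change of 0.55 did not pass (SE 0.22, 95% confidence interval 0.07 to 1.02, adjusted p = 0.179), whereas at day 3 FGF19 fell by 1.57 (SE 0.22, adjusted p = 1.33e-04), to 33.7% of control. With 2 of 3 knockdown arrays at the detection limit the size of this fall is poorly fixed, and it was -0.99 with the authors' log2 values and -1.04 without background correction (adjusted p = 3.42e-04 and 2.45e-04). The difference between the days was -2.11 (SE 0.31, adjusted p = 0.0021), the second lowest value (rank 2) of 15407 kept probes.

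The fall of FGF19 between the days in knockdown cells was called, and its higher day 3 level in control cells was not. In knockdown it fell by 1.18 from day 2 to day 3 (SE 0.22, adjusted p = 0.00591). In control it went from a mean of 6.42 to 7.35, a difference of 0.93 that did not pass (SE 0.22, adjusted p = 0.128). That difference passed with a block for the replicate number (adjusted p = 0.021) and in the fit without knockdown day 2 replicate 2 (adjusted p = 0.0474). The control arrays of the 2 days did not overlap. FGF4 and FGF3, which follow FGF19 along chromosome 11 in the RefSeq order of GRCh38.p14, were undetected on all 12 arrays, and LTO1, its neighbour on the other side, did not pass at day 2 (-0.21, adjusted p = 0.649) or day 3 (-0.27, adjusted p = 0.353).

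FGF2, the ligand used in stem cell media, changed little. On ILMN_2105919 the control arrays lay at 8.57, 9.33 and 9.15 at day 2 and at 9.22, 8.78 and 8.88 at day 3, and the knockdown arrays at 8.83, 8.46 and 8.39 and at 8.39, 8.32 and 8.46. At day 3 all knockdown arrays lay below the control arrays, with a change of -0.57 (SE 0.20, adjusted p = 0.0477) that is just inside the threshold and was lost in 13 of 21 alternative settings (adjusted p = 0.0215 to 0.178 over all of them). These include each fit without 1 array of day 3, without control day 2 replicate 3 and without knockdown day 2 replicate 2 or 3. The day 2 change of -0.46 did not pass (adjusted p = 0.223). A second FGF2 probe (ILMN_1744693), annotated to the same transcript and close to the detection limit, gave -0.13 and -0.38, neither of which passed (adjusted p = 0.875 and 0.377).

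**Figure D3:**
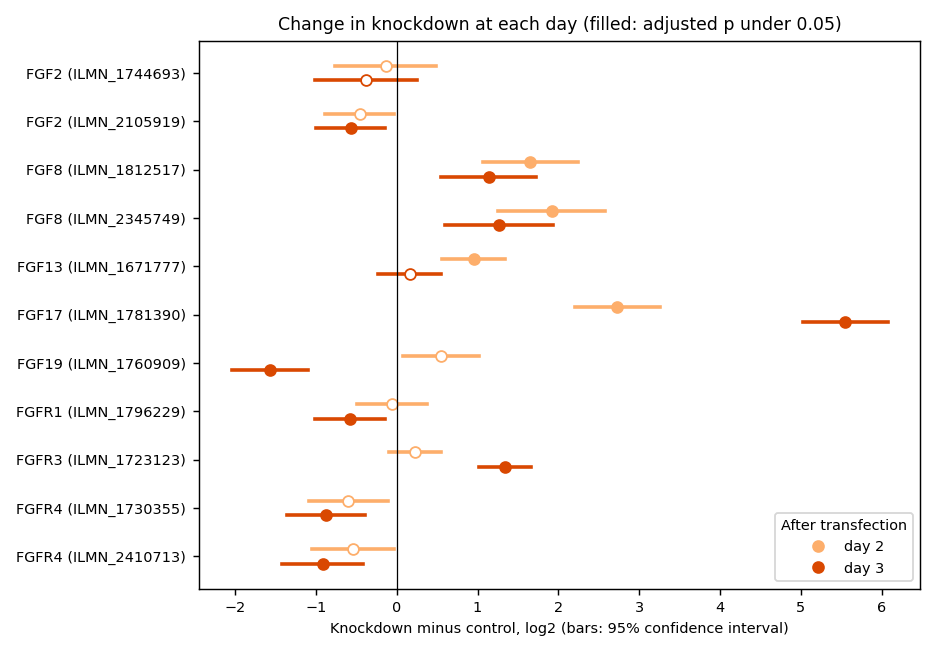
Knockdown minus control on the log2 scale (x axis) at day 2 and day 3 for the 11 tested probes (y axis). Bars are 95% confidence intervals of the limma fit and filled points passed an adjusted p of 0.05. FGF17, with control at background, stands at 2.73 and 5.55, and FGF19 moves from 0.55 to -1.57.

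Among the receptors, which turn ligand binding into kinase activity, FGFR3 rose in relation to control while FGFR4 fell. FGFR3 (ILMN_1723123) was at 10.49, 10.34 and 10.26 on control arrays of day 2 and at 10.68, 10.74 and 10.34 on knockdown arrays, a change of 0.22 (95% confidence interval -0.10 to 0.54, adjusted p = 0.473). At day 3 it was at 9.66, 9.35 and 9.38 in control and at 10.69, 10.87 and 10.84 in knockdown, without overlap, a change of 1.34 (SE 0.15, adjusted p = 1.76e-05) or 2.53-fold. The control arrays of day 3 were the low ones: knockdown arrays differed between the days by 0.21 (95% confidence interval -0.11 to 0.53, adjusted p = 0.509). In control cells FGFR3 fell by 0.90 (SE 0.15, adjusted p = 0.0304), the only 1 of the 11 probes called there, against 0.156% of all kept probes (0.0714% higher and 0.0844% lower). That call in control was lost in 9 of 21 alternative settings, among them each fit without a control array of day 2 or without control day 3 replicate 2 or 3 (adjusted p = 0.0922 to 0.165 in these 5 fits) and those without knockdown day 3 replicate 1 or 2 (0.0515 and 0.0561). The difference between the knockdown effects of the days was 1.12 (SE 0.21, adjusted p = 0.0124), and it did not pass on the arrays of replicates 1 and 2 alone (0.98, adjusted p = 0.0948).

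FGFR4, the main receptor of FGF19, was read by ILMN_2410713 and ILMN_1730355, both annotated to 1 transcript. On ILMN_2410713 the control arrays lay at 8.85, 8.70 and 9.17 at day 2 and 8.78, 9.08 and 9.55 at day 3, and the knockdown arrays at 8.33, 8.12 and 8.66 and at 7.84, 8.23 and 8.60. Each knockdown array lay below the control arrays of its day. At day 3 FGFR4 fell by 0.92 (SE 0.23, adjusted p = 0.0104), to 53.0% of control, and on ILMN_1730355 by 0.88 (SE 0.23, adjusted p = 0.0106). At day 2 the changes of -0.54 and -0.60 did not pass (adjusted p = 0.223 and 0.148). Without knockdown day 3 replicate 1 both day 3 values fell short of the threshold (-0.73 and -0.76, adjusted p = 0.0549 and 0.051), although the 3 differences between same-numbered arrays of day 3 were alike for ILMN_2410713 (-0.94, -0.85 and -0.96).

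FGFR1 (ILMN_1796229) was near the detection limit, detected on 9 of 12 arrays. It lay at 6.16, 5.71 and 6.27 in control and 5.82, 5.97 and 6.19 in knockdown arrays of day 2, and at 6.15, 6.53 and 6.81 in control and 5.73, 5.86 and 6.17 in knockdown arrays of day 3. The groups overlapped on both days. The day 3 change of -0.58 (SE 0.20, adjusted p = 0.0481) was just inside the threshold and was lost in 13 of 21 alternative settings (adjusted p = 0.00634 to 0.171 over all of them). These include the fits without replicate 1 of control or knockdown day 2, replicate 2 of knockdown day 2, replicate 2 or 3 of control day 3 and replicate 1 or 2 of knockdown day 3. The day 2 change of -0.06 did not pass (adjusted p = 0.931). Of the member probes not kept, the FGFR3 probe ILMN_1651966 had the lowest detection p, 0.0105, and was detected on 0 arrays. Of the 11 tested probes, FGF17 was detected on the fewest arrays, 6, where the rule asks for 3.

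The promoters of FGFR3 and FGFR4 are shown because these receptors moved in opposite directions at day 3. Of the 10 genes, 5 matched RefSeq's promoter table (FGF2, FGF13, FGFR2, FGFR3 and FGFR4). Each window runs from 250 bases before to 50 bases after an annotated start, on the plus strand of GRCh38.p14, and capitals mark the GC box GGGCGG on either strand. Which start the probes' transcripts used was not measured, and for FGFR4, which has 2 windows in the table, the upstream one is printed. The other FGFR4 window holds 0 GC boxes.
FGFR3 (chr4:1793043-1793342): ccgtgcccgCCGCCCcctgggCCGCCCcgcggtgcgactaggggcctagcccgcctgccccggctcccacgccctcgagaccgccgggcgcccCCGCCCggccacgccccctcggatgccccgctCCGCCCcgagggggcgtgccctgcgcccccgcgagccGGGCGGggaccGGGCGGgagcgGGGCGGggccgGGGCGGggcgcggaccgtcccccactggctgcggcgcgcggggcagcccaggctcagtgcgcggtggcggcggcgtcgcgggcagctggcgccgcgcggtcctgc
FGFR4 (chr5:177086665-177086964): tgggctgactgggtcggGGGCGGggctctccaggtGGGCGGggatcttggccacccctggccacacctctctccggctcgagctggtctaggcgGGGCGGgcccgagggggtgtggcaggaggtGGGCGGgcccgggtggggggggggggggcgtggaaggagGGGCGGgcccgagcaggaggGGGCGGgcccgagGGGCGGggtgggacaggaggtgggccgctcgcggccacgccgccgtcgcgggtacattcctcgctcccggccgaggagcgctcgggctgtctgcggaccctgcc
The FGFR3 window holds 8 GC boxes and 86.3% G and C, and the FGFR4 window 7 GC boxes and 78.7%, where the median of 35116 promoters of this length is 58.7%. A GC box is present in 45% of those promoters. The octamer ATGCAAAT, the T-box sequence AGGTGTGA and the TATA box TATAAA, searched on both strands, were in neither window, and are found in 1.77%, 0.98% and 11.5% of all promoters. No match says only that these letters are not in these windows.

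The difference between the 2 knockdown effects, tested as an interaction, was called for 3 of 11 probes, against 2.01% of all kept probes (1.57% higher and 0.441% lower): higher for FGF17 (2.82, SE 0.34, adjusted p = 5.58e-04, both effects set against control arrays at background) and FGFR3, and lower for FGF19. Each had a course of its own. FGF17 rose by 3.44 within knockdown cells from day 2 to day 3 (SE 0.24, adjusted p = 1.56e-06), 10.9-fold, with the control undetected. FGFR3 differed through its lower control level at day 3. For FGF19 both a lower knockdown level (-1.18) and a higher control level (0.93) at day 3 entered the difference. The control part passed only with the replicate block or without knockdown day 2 replicate 2, and the 2 parts were not tested against each other. For FGF2, FGF8, FGFR1 and FGFR4 the difference did not pass (adjusted p = 0.542 to 0.963), with estimates of -0.11 to -0.65.

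**Figure D4:**
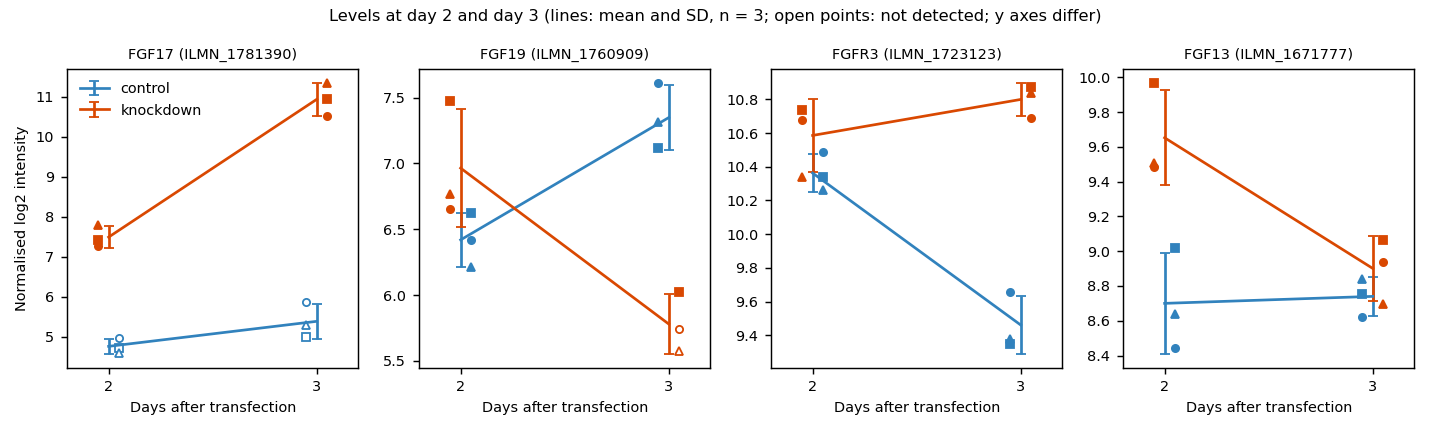
Normalised log2 intensity (y axis, a range of its own for each panel) of FGF17, FGF19, FGFR3 and FGF13 in control and knockdown arrays at 2 and 3 days after transfection (x axis). Lines join group means with SD (n = 3), points are arrays, and open points are undetected. The FGF19 lines cross between the days, and the FGFR3 lines part through the control arrays.

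The genes whose levels followed FGF17 most closely over the 12 arrays, among 10498 other genes, were ERP27 (Pearson r = 0.991), AKR1C2 (0.99) and FLRT3 (0.987). Their group means had the same order as those of FGF17, with FLRT3 at 5.86 and 6.23 in control and 8.10 and 10.50 in knockdown at days 2 and 3. ERP27 had means of 4.47 and 4.58 in control, below the lowest detected signals (5.69 to 6.16), and of 5.7 and 6.99 in knockdown. FGF17 was itself undetected in control, so the ERP27 correlation rests in part on background values. For FGF19 the closest were CA4, a carbonic anhydrase (0.908), THOC1 (0.904) and NHS (0.903). CA4 had means of 7.72 and 8.52 in control and of 7.79 and 6.59 in knockdown. These values describe 12 arrays that share the 4 groups.

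Of the 16 other FGF genes, listed as ligands by name, 11 had no probe detected on any array, FGF3, FGF5, FGF7, FGF9 and FGF10 among them. Of the 5 measured, 2 rose at day 2, and 2 rose and 1 fell at day 3, where 8.15% (5.45% higher, 2.69% lower) and 29.0% (14.1% higher, 14.9% lower) of 10506 genes read by their brightest kept probe were called. FGF18 and FGF1 were detected only on knockdown arrays and passed the filter through them, so these counts describe the measured genes and not the ligands as a group. FGF18, which shares a subfamily with FGF8 and FGF17, was undetected on the control arrays of both days and lay at 6.79, 7.82 and 7.41 in knockdown at day 2, at least 2.71-fold higher (adjusted p = 5.7e-05). At day 3 the knockdown arrays lay at 5.38, 6.01 and 6.05, with 2 of 3 detected (adjusted p = 0.00518), and no fold can be given against the detection level. FGF1 was also detected on 2 of 3 knockdown arrays of day 3 and on no control array of that day, at least 1.03-fold higher (adjusted p = 0.0419), FGF12 was higher at day 2 (0.54, adjusted p = 0.0464), and FGF16 was undetected in both groups of day 3, so that its call (adjusted p = 0.0135) sets background against background. FGF12 was named after its value was seen, and that value is from its brightest probe. Another kept FGF12 probe (ILMN_1677680) was detected on 9 arrays, and its change was not examined.

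Among co-receptors and ligand-binding proteins every call was a rise. Of 14 measured genes, 4 rose at day 2 and 6 at day 3, and 0 fell (median 0.18 and 0.36, against -0.04 and -0.07 over all genes). The shares of all genes called, 8.15% at day 2 and 29.0% at day 3 (14.1% higher and 14.9% lower), are the background for this and the following groups. FLRT3 and FLRT2, membrane proteins that can bind FGF receptors, rose by 4.27 and 2.28 at day 3 (adjusted p = 1.63e-09 and 3.99e-06) and by 2.24 and 2.13 at day 2 (adjusted p = 2.89e-06 and 3.1e-05). SDC4, a heparan sulphate proteoglycan, rose by 1.06 at day 3 (adjusted p = 2.46e-04) and 0.64 at day 2 (adjusted p = 0.0234). Enzymes of heparan sulphate had 2 rises and 1 fall at day 2 and 7 rises and 3 falls at day 3 among 16. The day 2 calls of HS3ST1 and SULF1 rest on groups of which 1 array in 6 was detected, and they give no fold, as does that of HSPG2 among the binding proteins. HSPG2 and HS3ST1 passed the detection filter only through knockdown arrays, and SULF1 only through control arrays. EXT1, which lengthens the chain, rose by 1.51 at day 3, and the sulphotransferases HS3ST2 and HS3ST3A1 by 1.32 and 1.28. SULF1, a sulphatase that trims heparan sulphate outside the cell, was undetected in knockdown at day 3 and at least 2.43-fold lower (adjusted p = 1.79e-04), EXTL2 fell by 0.60 and XYLT1 by 0.59.

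Of 16 measured adaptors and kinases downstream of the receptors, 1 rose at day 2 and 2 at day 3, and 0 fell. These shares were no larger than the 8.15% and 29.0% of all genes called in either direction, of which 5.45% and 14.1% were called higher. They were GAB2, a docking protein, which rose by 1.40 at day 3 (adjusted p = 2.71e-05) and 0.64 at day 2 (adjusted p = 0.0275), and RPS6KA2, a kinase activated by ERK, with 0.64 at day 3 (adjusted p = 0.0352). Of 9 feedback inhibitors, 3 rose at day 2 and 2 at day 3, and 0 fell. The day 3 share lay below the 29.0% of all genes called in either direction and above the 14.1% called higher. SPRY2, a Sprouty inhibitor, rose by 1.04 at day 2 (adjusted p = 0.0146) and 0.69 at day 3 (adjusted p = 0.0446), and DUSP14, a phosphatase, by 0.49 at day 3 (adjusted p = 0.0152). The other risers of day 2, named after their values were seen, were DUSP6, an ERK phosphatase (0.83, adjusted p = 0.0392), and SPRY1 (0.82, adjusted p = 0.00242).

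Of 10 transcription factors and early genes that FGF is known to induce, 2 rose and 2 fell at day 2, and 3 rose and 2 fell at day 3, beside 8.15% and 29.0% of all genes called. The ETS factors ETV4 and ETV5 fell by 1.51 and 1.22 at day 3 (adjusted p = 1.21e-04 and 2.16e-04) and by 0.99 and 0.85 at day 2 (adjusted p = 0.00965 and 0.0101). IER3 rose by 3.71 at day 3 (adjusted p = 5.31e-08) and JUNB was undetected in control and at least 1.85-fold higher (adjusted p = 2.58e-04), with EGR1 at 0.46 (adjusted p = 0.0339). JUNB was detected on 1 control array of day 2 and would not have passed the filter without its knockdown arrays. Known targets of the pathway thus stood on both sides, ETV4 and ETV5 below control on both days and SPRY2 above it. The SPRY2 call of day 3 was just inside the threshold (adjusted p = 0.0446). How calls of single listed genes hold in the alternative settings was not examined.

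**Figure D5:**
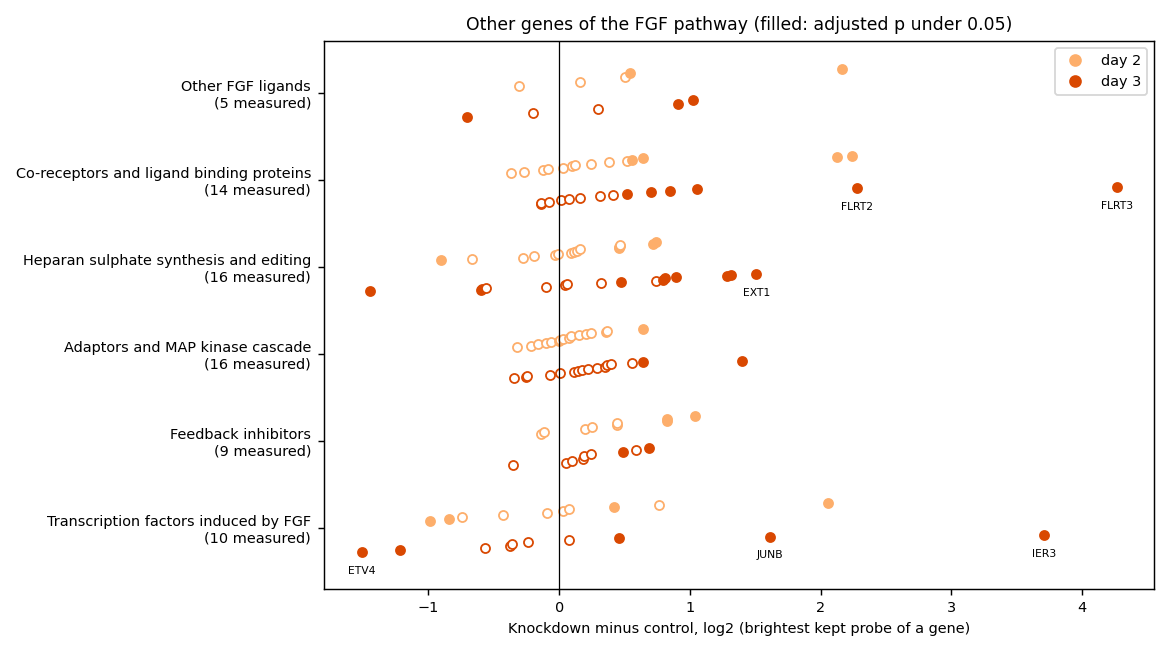
Knockdown minus control on the log2 scale (x axis) at day 2 and day 3 for the measured genes of 6 groups of the FGF pathway (y axis), 1 point per gene and day. Filled points passed an adjusted p of 0.05, and genes called at day 3 with a change beyond 1.5 are named. FLRT3 at 4.27 and IER3 at 3.71 lie farthest to the right, and ETV4 at -1.51 farthest to the left.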

How the data were processed

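The authors deposited 1 intensity per probe and array on a linear scale, with a detection p-value in steps of 1 in 759, per the file headers. Scanner and software: not given in the sources used here. The authors' other deposited table holds log2 values, which equal the log2 intensities less 1 constant per array and 1 per probe (remainder SD 1.71e-07, column medians -0.0146 to 0.0136). They served as an alternative, and the samples behind the constant per probe stay unknown. Genes were named from GEO's platform annotation, where 28098 probes carry 1 symbol, 13 carry several and 20692 carry none. By Entrez identifier 28059 of these matched RefSeq's GRCh38.p14 table, and 0 symbols changed.

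The neqc function of limma 3.58.1 (R 4.3.3) removed background using the detection p-values, added 16 to each signal, made the arrays' distributions equal by quantiles and took log2. Probes were kept where 3 or more of the 12 arrays had a detection p under 0.01, which left 15407, and all were fitted together in limma, each group having its own mean (8 residual degrees of freedom, 5.2 added by the moderated spread). Tests were two-sided, with Benjamini-Hochberg adjustment over all kept probes and a threshold of 0.05. The fit was tested on simulated data with independent noise on each array, which leaves out the likeness of same-numbered arrays. A group undetected on all 3 arrays is given as a bound, taken from the brighter mean over a floor, per array the lowest detected signal or the dim probe's own if larger (log2 5.69 to 6.16). An adjusted p printed beside any bound tests the fitted change, and the bound itself was not tested. The comparisons between days share arrays with the knockdown comparisons. The number of arrays limits the precision.

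Deviations of same-numbered arrays from their group means correlated at 0.389 to 0.738 for control and knockdown at day 3, 0.214 to 0.666 for the control arrays and 0.22 to 0.724 for the knockdown arrays of the 2 days. Control and knockdown of day 2 gave 0.022, 0.398 and 0.701 for replicates 1 to 3, and the numbers were not taken to pair them. The 3 deviations of a group balance each other, so a shift of replicate 3 alone also makes replicates 1 and 2 correlate. These values therefore cannot show whether the numbers 1 and 2 pair arrays. No label says what a number marks. The members and gene lists were chosen with earlier results of these data known. Named were all members, POU5F1, the 3 genes closest to the largest riser and faller of day 3, and in each list up to 3 risers and 3 fallers of day 3. Figures were drawn with matplotlib 3.10.9. Probes can cross-hybridise with relatives, which was not tested. Alternatives were median scaling, no background correction, the authors' log2 values, no detection filter and a stricter one, 1 probe per gene, the replicate number as a block, the arrays compared alone, each array left out and, added after the data were seen, replicates 1 and 2 alone.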

Additional observations from a re-analysis of the deposited data

Results flagged for a closer look

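The knockdown effect differed between the days, by the test of the difference itself, for 3 FGF probes. For FGF17 (ILMN_1781390) the day 3 change exceeded the day 2 change by 2.82 on the log2 scale (5.55 against 2.73). Both changes are set against control arrays at background, so 2.82 gives no exact size. Within knockdown arrays, detected on both days, FGF17 rose by 3.44. For FGF19 (ILMN_1760909) the difference was -2.11 (-1.57 against 0.55). For FGFR3 (ILMN_1723123) it was 1.12 (1.34 against 0.22). Groups of 3 arrays were too small to test for single arrays that lie far from their group.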

How the results depend on the processing

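No alternative turned the direction of a called change of the 11 FGF probes. The number called at day 2 stayed at 3 to 6 in all settings, FGF17 and FGF8 keeping their calls in each, and the number for the difference between days at 2 to 4. At day 3, 9 were called, 5 to 9 when 1 array was left out and 5 on the arrays of replicates 1 and 2 alone, a fit chosen after seeing the data. The fit without knockdown day 3 replicate 1 gave the 5, losing FGF2, FGFR1 and both FGFR4 probes. FGF17, FGF19 and FGFR3 kept their day 3 calls in all settings. In control arrays 1 was called, 2 with the replicate block, 0 on the arrays compared alone, 0 on replicates 1 and 2 alone, and 0 to 2 when 1 array was left out. Changes within knockdown arrays gave 2 or 3. The cause of these shifts was not tested, beyond the fewer arrays fitted.

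The replicate block raised the calls over all kept probes from 1171 to 2313 at day 2, from 310 to 893 for the difference, from 24 to 517 in control and from 791 to 1992 in knockdown arrays. It added FGFR4 at day 2 (adjusted p = 0.0178 and 0.0159), where the replicate 1 arrays correlated at 0.022, and FGF13 for the difference (adjusted p = 0.0307). Beyond these and FGF19 in control, it changed no member's call. On the arrays compared alone 433 probes were called within knockdown arrays, and in control arrays 6 on replicates 1 and 2 alone and 13 without a detection filter. Leaving out 1 array gave 751 to 1213 calls at day 2 (fewest without control day 2 replicate 1), 3185 to 4413 at day 3 and 202 to 326 for the difference (fewest without knockdown day 3 replicate 1 in both), 7 to 50 in control and 476 to 792 in knockdown arrays. Scalings moved the median of all kept probes by under 0.1. Signal near background limits FGF19, FGFR1 and the fainter FGF2 probe.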
